A study of Mus musculus with 11 samples.

Results

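The genes described here encode the proteins of the cytosolic ribosome in KP1 cells, a cell line from a mouse small cell lung cancer (SCLC). They were chosen by symbol, as protein-coding genes whose name is Rpl or Rps followed by a digit, together with Rplp0, Rplp1, Rplp2 and Rpsa. Pseudogene symbols with -ps and the Rps6k kinases were left out. The rule found 86 of the 35056 genes in the files, of which 52 carry large-subunit (Rpl) and 34 small-subunit (Rps) symbols. KP1 cells are Rb/p53 mutant, so both groups lack these tumor suppressors, and the line stands for the neuroendocrine SCLC-A type as it grows in culture. The control group was 2 libraries of untreated cells (replicates 2 and 3). The irradiated group was 3 libraries (replicates 1, 2 and 3) of cells that received 5 Gy and were collected at 24 h. The comparison asks how the messages of the translation machinery stood in SCLC cells at 24 h after radiation. No label says whether the replicates were separate cultures, so the p-values measure the spread between these libraries, which may be technical. The study's leukocyte samples were not analysed here.

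A eukaryotic ribosome is built from a small subunit, which reads the mRNA, and a large subunit, which joins amino acids. Each ribosomal protein is present mostly in a single copy per ribosome, apart from the acidic proteins of the stalk, and the genes for these proteins are usually transcribed at similar, high rates. Their mRNAs are short and abundant. Many start with a C followed by an unbroken run of pyrimidines, the 5′ terminal oligopyrimidine (TOP) motif, through which the mTOR pathway and the RNA-binding protein LARP1 control their translation and stability. Free RPL5 and RPL11 bind MDM2 when ribosome assembly fails, which stabilizes p53. That arm ends in a gene that KP1 cells have lost.

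The start sites of several members are shown first, because the TOP motif is the sequence that groups these mRNAs. Each sequence is 30 bases of the gene's own strand, 5′ to 3′, with 15 bases before the annotated start and 15 from it on, taken from RefSeq on GRCm38.p6. Capitals mark the pyrimidine run that opens with C, where such a run begins within 10 bases of the start. Rps6 lies at chr4:86857353-86857382 (minus strand), Rplp2 at chr7:141447636-141447665 (plus), Rps21 at chr2:180257364-180257393 (plus) and Rpl41 at chr10:128549154-128549183 (minus). Rps27 lies at chr3:90213634-90213663 (minus) and its retrogene Rps27rt at chr9:114982725-114982754 (minus). Rps6 encodes the classic target of S6 kinase, Rplp2 a stalk protein, and Rps21 had the largest change. Rps21 has a further annotated start region, at chr2:180257434-180257463 (plus), which holds no run and is not printed. Rpl41 is shown as a member with no run in the window, and Rps27 and Rps27rt as a pair of genes that share reads.
Rps6: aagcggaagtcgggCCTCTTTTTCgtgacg
Rplp2: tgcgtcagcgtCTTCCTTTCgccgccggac
Rps21: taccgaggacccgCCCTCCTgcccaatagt
Rpl41: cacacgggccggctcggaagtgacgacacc
Rps27: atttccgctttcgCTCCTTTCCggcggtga
Rps27rt: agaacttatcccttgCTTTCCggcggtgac

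The RefSeq table of start regions held 66 of the 86 members among 27025 symbols. A symbol with several start regions was counted for a motif found in any of them. A C at the annotated start followed by at least 5 unbroken pyrimidines was found for 12 of the 66 (18.2%), against 2.05% of all symbols in the table and 1.93% of the protein-coding ones. Within 10 bases of the start, 35 members (53%) held such a run, against 21.9% of all and 22.4% of protein-coding symbols. In the 250 bases before to 50 after the start, read on both strands, CCGGAAG was found for 26 members (39.4%, against 9.93% of all and 13.4% of protein-coding symbols). GGGCGG was found for 41 (62.1%, against 38.2% of all and 51.2% of protein-coding symbols). AGATGGC was found for 8 (12.1%, against 7.31% and 7%) and TATAAA for 7 (10.6%, against 15.7% and 14.3%). Each motif was counted separately and the letters of these 4 do not contain one another. The median log2 fold change was 1.23 for members with a run within 10 bases and 1.32 for those without. This split rests on annotated starts, which were not checked against the mRNAs of these cells, and its difference was not tested.

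Ribosomal protein mRNAs took a larger share of every irradiated library. The 86 genes held 1.83% and 1.97% of the estimated reads in control replicates 2 and 3, and 4.63%, 4.80% and 3.70% in irradiated replicates 1, 2 and 3. The groups did not overlap, and the mean rose from 1.90% ± 0.103 (SD, n = 2) to 4.38% ± 0.592 (SD, n = 3), a ratio of 2.31. In TPM, Salmon's abundance that is divided by transcript length and scaled to 1 total in every library, their share was 7.07% and 7.68% in the controls and 15.7%, 16.4% and 12.5% in the irradiated libraries, a ratio of 2.02. An exact permutation test of 2 against 3 libraries cannot go below p = 0.1, and none was run on these sums. Both subunits took part, since the ratio of large-subunit to small-subunit TPM was 1.41 and 1.43 in the controls and 1.40, 1.34 and 1.43 in the irradiated libraries. The median member stood at 790 and 939 TPM in the controls and at 1757, 1821 and 1498 TPM after irradiation. These values are shares of a library: more of a message per cell and less of the other RNA cannot be told apart here.

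**Figure D1:**
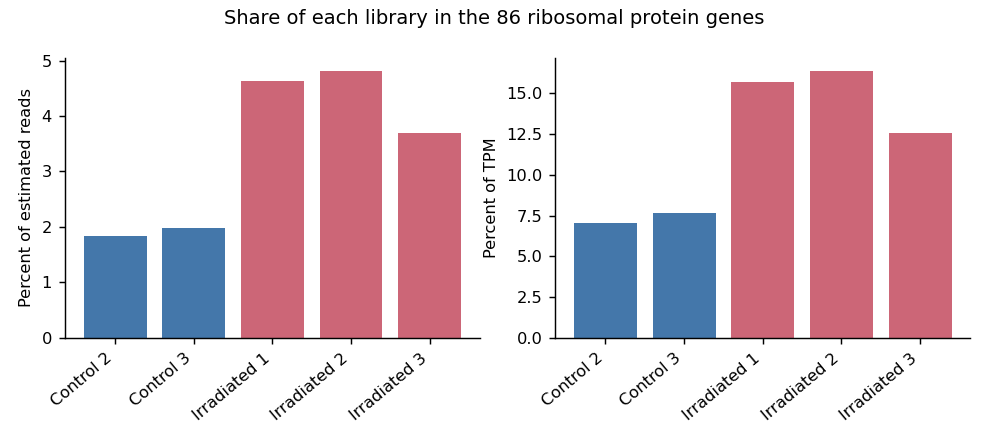
Share of each library held by the 86 ribosomal protein genes, in percent of estimated reads (left) and percent of TPM (right). Each bar is 1 library; the irradiated bars, at 3.70% to 4.80% of reads, all stand above the control bars, at 1.83% and 1.97%.

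Of the 86 members, 83 passed the filter on low counts and were tested. In edgeR's quasi-likelihood test, with p-values adjusted by Benjamini-Hochberg over 14106 genes, 78 of them rose in irradiated cells at an adjusted p under 0.05 and 0 fell. At an unadjusted p under 0.05 there were 81 higher and 0 lower, and DESeq2 called 80 higher and 0 lower. Over all tested genes, edgeR called 12.7% higher and 13% lower. DESeq2 called 17.1% of them higher and 2292 of the 14106 lower. The share of all tested genes at an unadjusted p under 0.05 was not counted, here or for the lists below. The median log2 fold change of the tested members was 1.25 (quartiles 1.11 and 1.46, range 0.32 to 1.92), and that of all tested genes was 0.02. For 82 of the 83 members, every irradiated library lay above both controls in CPM, the count scaled to library size, a pattern found in 30.1% of all tested genes. The exception was Rps27. Of the 49 tested Rpl genes 46 rose, with a median of 1.29, and of the 34 Rps genes 32 rose, with a median of 1.23. Under the stricter rule of an adjusted p under 0.05 and a log2 fold change above 1.5, 18 members were called, against 1.63% of all tested genes.

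The number of calls rested on control replicate 2. Without it, 34 members were called higher, with a median log2 fold change of 1.24, and only 0.65% of all genes were called higher. Of the landmark genes, paralogues, partners and extremes named by rule, 19 then lost their call, among them the 5 with the largest changes. Without control replicate 3 the median log2 fold change of the members was 1.35. Without irradiated replicates 1, 2 or 3, 72, 74 and 77 members were called higher. Of all tested genes, 5.95%, 4.91% and 11.2% were then called higher. Each of those fits kept all 83 members above 0. Among the irradiated libraries, replicate 3 gave the lowest CPM for 74 of the 83 members and replicate 2 the highest for 60.

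**Figure D2:**
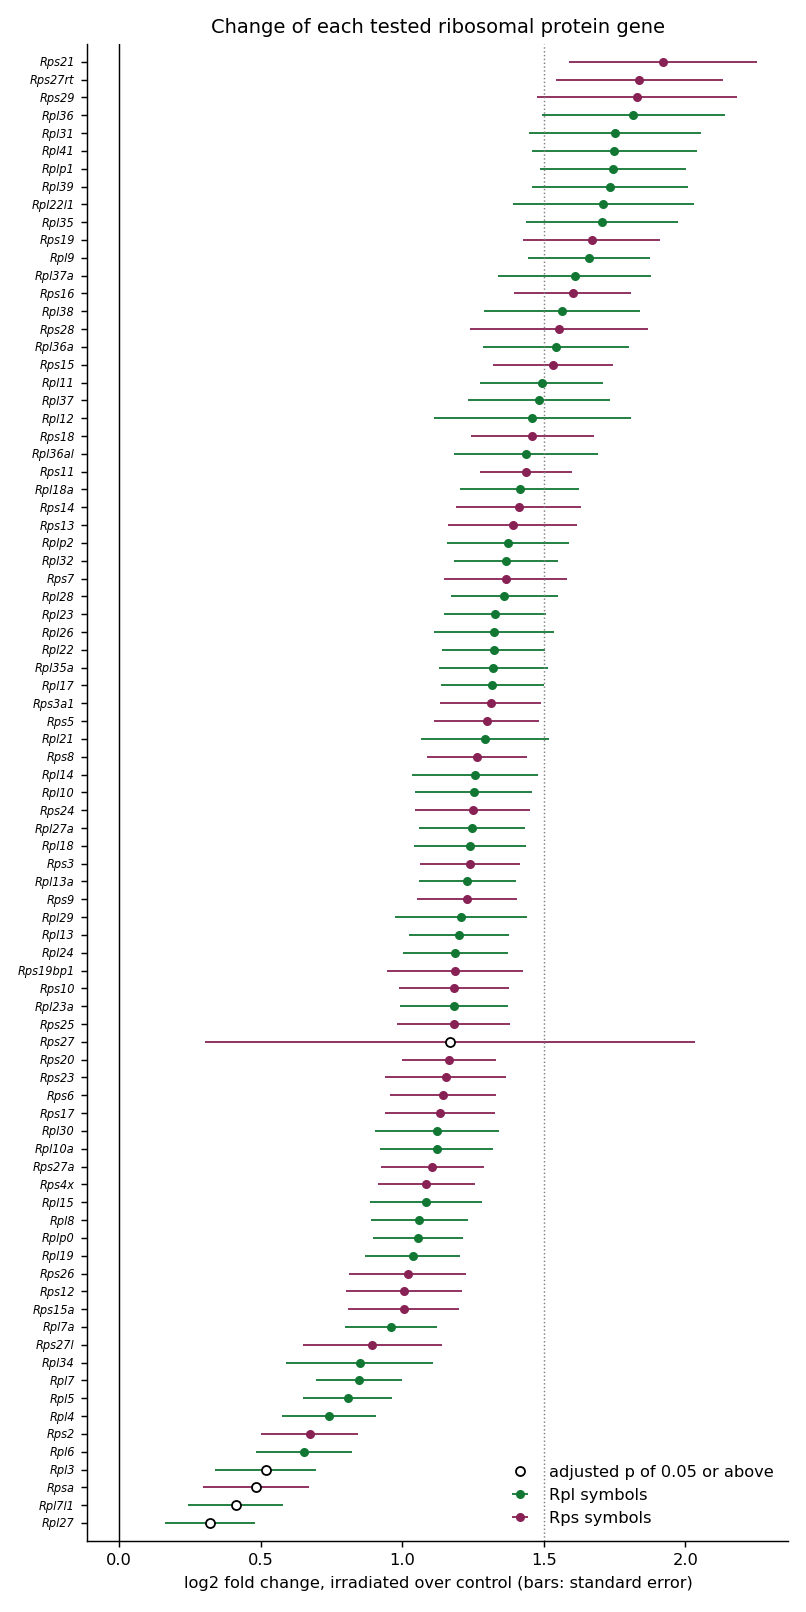
Log2 fold change of irradiated over control cells for the 83 tested members, sorted, with the standard error from edgeR. Green marks Rpl and purple Rps symbols, open circles the 5 genes with an adjusted p of 0.05 or above, and the dotted line a log2 fold change of 1.5; all points lie right of 0, from 0.32 (Rpl27) to 1.92 (Rps21).

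The stalk of the large subunit, where elongation factors dock, is a complex of Rplp0, Rplp1 and Rplp2, and all 3 rose. Rplp0 (ENSMUSG00000067274.10, chr5:115559467-115563727), the base of the stalk and a common reference gene in quantitative PCR, stood at 1232 and 1117 CPM in control replicates 2 and 3 and at 2554, 2332 and 2439 CPM in irradiated replicates 1 to 3. Its log2 fold change was 1.06 ± 0.16 (SE, adjusted p = 0.00919). Rplp1 (chr9:61913284-61914542) stood at 140 and 211 CPM in controls and at 608, 704 and 450 CPM after irradiation, a log2 fold change of 1.74 ± 0.26 (adjusted p = 0.00901). Rplp2 (chr7:141447370-141451585) stood at 168 and 177 CPM in controls and at 461, 540 and 341 CPM after irradiation, a log2 fold change of 1.37 ± 0.21 (adjusted p = 0.00919). No irradiated library overlapped a control for any of the 3. Rplp1 and Rplp2 had their lowest irradiated level in replicate 3, whereas the levels of Rplp0 were close together. With an offset for transcript length, a setting that removes the trend of all genes with length in each library, Rplp0 was at 0.61 (adjusted p = 0.0636) and lost its call.

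In the small subunit, 5 landmark genes ranged from no call for Rpsa to a clear rise for Rps19. Rps6, whose protein is phosphorylated by S6 kinase in growing cells, stood at 386 and 489 CPM in controls and at 998, 1057 and 844 CPM after irradiation (log2 fold change 1.14 ± 0.19, adjusted p = 0.00919). Rps3, which lines the mRNA entry channel and also has a reported role in DNA repair, stood at 402 and 405 CPM in controls and at 1044, 1003 and 808 CPM after irradiation (1.24 ± 0.18, adjusted p = 0.00869). Rps19, the gene most often mutated in Diamond-Blackfan anemia, stood at 107 and 130 CPM in controls and at 357, 485 and 288 CPM after irradiation, a 3.18-fold rise (1.67 ± 0.24, adjusted p = 0.00886). These 3 genes had clearly separate groups. Rps2 rose less, from 676 and 540 CPM to 971, 1030 and 907 CPM (0.67 ± 0.17, adjusted p = 0.0260), and with the length offset it was at 0.18 (adjusted p = 0.538). The call of Rps2 was also lost without control replicate 2 or 3 or irradiated replicate 1 or 2 (adjusted p = 0.0565 to 0.0904). Rpsa, which encodes both a small-subunit protein and a laminin receptor, stood at 1690 and 1251 CPM in controls and at 2245, 1886 and 2032 CPM after irradiation. Its groups did not overlap, but its log2 fold change of 0.48 ± 0.19 did not pass the test (adjusted p = 0.0896).

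In the large subunit, Rpl11 (chr4:136028265-136053428) rose from 248 and 287 CPM to 803, 878 and 577 CPM (1.49 ± 0.22, adjusted p = 0.00886). Its partner in MDM2 binding, Rpl5 (chr5:107900502-107909005), rose from 41.3 and 48.6 CPM to 82.2, 82.8 and 70.9 CPM (0.81 ± 0.16, adjusted p = 0.0124). Rpl5 was low per length too, at 61.5 and 66.5 TPM in controls against 1140 and 1415 TPM for Rpl11, and most of the reads of its sequence were assigned to a copy. Rpl10, a late-joining protein near the peptidyl transferase center, rose from 66.7 and 88.7 CPM to 224, 162 and 170 CPM (1.25 ± 0.21, adjusted p = 0.00922), and here too most reads of the sequence were assigned to a copy. Rpl41, which encodes the smallest ribosomal protein, rose from 143 and 229 CPM to 690, 743 and 438 CPM (1.75 ± 0.29, adjusted p = 0.00922). Rpl3, a core protein of the large subunit, stood at 996 and 750 CPM in controls and at 1300, 1180 and 1268 CPM after irradiation, and its log2 fold change of 0.52 ± 0.18 did not pass the test (adjusted p = 0.0641).

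The 5 largest log2 fold changes belonged to short transcripts. Rps21 (394 bases) led, from 57.3 and 75.8 CPM in controls to 279, 329 and 148 CPM after irradiation (1.92 ± 0.33, adjusted p = 0.00957). Its TPM rank among the 86 members was 34 in controls and 10 in irradiated cells. Rps27rt followed at 1.84 ± 0.30 (adjusted p = 0.00919), Rps29 at 1.83 ± 0.35 (adjusted p = 0.0120), Rpl36 at 1.82 ± 0.32 (adjusted p = 0.0101) and Rpl31 at 1.75 ± 0.30 (adjusted p = 0.00965). Their main transcripts measured 374, 390, 383 and 487 bases. All 5 had separate groups, with irradiated replicate 2 the highest and replicate 3 the lowest library for each.

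The 5 smallest belonged to Rpl27 (0.32), Rpl7l1 (0.41), Rpsa (0.48), Rpl3 (0.52) and Rpl6 (0.65). Of these edgeR called Rpl6, which went from 754 and 605 CPM to 1135, 1037 and 1029 CPM (SE 0.17, adjusted p = 0.0276). That call was lost when any 1 of the 5 libraries was left out (adjusted p = 0.0530 to 0.0844), and with the length offset Rpl6 was at 0.18 (adjusted p = 0.546). DESeq2 called Rpl6 (adjusted p = 0.00108) and also Rpl3 (adjusted p = 0.0200) and Rpsa (adjusted p = 0.0438). Rpl27 stood at 51.1 and 39.7 CPM in controls and at 56.4, 55.6 and 58.3 CPM after irradiation (SE 0.16, adjusted p = 0.165). Rpl7l1 stood at 142 and 141 CPM in controls and at 157, 210 and 197 CPM after irradiation (SE 0.17, adjusted p = 0.101). Apart from Rpl27, whose main transcript has 732 bases, these are long for ribosomal protein mRNAs, with 2606 bases for Rpl7l1, 1938 for Rpsa, 1351 for Rpl3 and 1270 for Rpl6.

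**Figure D3:**
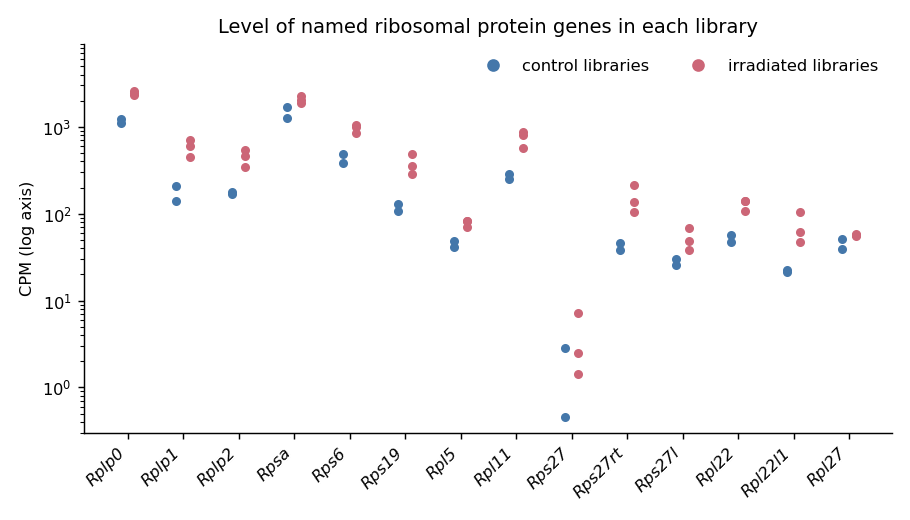
CPM of 14 members in each library on a log axis, with control libraries in blue and irradiated libraries in red. The groups are apart for every gene but Rps27, which lies far below its retrogene Rps27rt.

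Several ribosomal proteins have a paralogue, and 4 of the 5 tested members with the symbol of a second gene rose. Of all tested members 94% rose, and of all tested genes 12.7%. Rps4x was counted here for its symbol and has no partner among the members. No difference between a paralogue and its partner was tested. Rpl22l1 rose from 21.3 and 22.5 CPM to 62.0, 106 and 47.6 CPM (1.71 ± 0.32, adjusted p = 0.0110), and Rpl22 from 47.5 and 56.1 CPM to 142, 140 and 107 CPM (1.32 ± 0.18, adjusted p = 0.00849). Both were higher in every irradiated library than in either control. Rpl36al (1.44 ± 0.25, adjusted p = 0.0101) and its X-linked partner Rpl36a (1.54 ± 0.26, adjusted p = 0.00922) both rose. Rps4x, the X-linked gene for the eS4 protein, rose by a log2 fold change of 1.09 ± 0.17 (adjusted p = 0.00919). Rps27l, a known p53 target, rose from 25.6 and 29.9 CPM to 48.5, 68.2 and 38.2 CPM (0.89 ± 0.25, adjusted p = 0.0332), and with the length offset it was at 0.59 (adjusted p = 0.0892). Its call was also lost without control replicate 2 (adjusted p = 0.154), irradiated replicate 1 (adjusted p = 0.0694) or irradiated replicate 2 (adjusted p = 0.0850). The ribosome-assembly relative Rpl7l1 did not pass the test, while Rpl7 rose (0.85 ± 0.15, adjusted p = 0.0104). With the length offset Rpl7 was at 0.38 (adjusted p = 0.162).

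The tissue-restricted paralogues were at or near 0. Rpl10l and Rpl39l, both best known from testis, had 0 reads in all 5 libraries, which allows up to 3 reads per library. The striated-muscle gene Rpl3l had 0 reads in both controls and in irradiated replicate 1, 1 read in replicate 2 and 2 in replicate 3. These 3 were the members that were not tested. Their partners had reads in every library. Rpl39 rose from 23.9 and 31.3 CPM to 89.1, 121 and 64.8 CPM (1.73 ± 0.27, adjusted p = 0.00919). In controls Rpl39 was itself low for a member, at rank 75 by TPM. The symbol rule also took in Rps19bp1, which encodes an RPS19-binding protein rather than a part of the ribosome (1.19 ± 0.24, adjusted p = 0.0131).

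Ribosomal protein genes have many processed pseudogenes, and reads from a near-identical copy can be assigned to either sequence. By a search at 95% identity over 80% of the shorter main transcript, 80 members had 588 such copies, 565 of them processed pseudogenes. Most copies were quiet: 283 had 0 reads in every library, and 28 had at least 3 reads in each. Copies held 10.8% ± 0.384 (SD, n = 2) of the reads of members and copies in controls and 10.5% ± 0.318 (SD, n = 3) in irradiated cells. The share of a library in copies moved with that of the members, from 0.229% to 0.514%, a ratio of 2.24. With copies summed into their members, 80 of 83 were called higher, against 12.7% of all genes. Rps27 and Rps27rt are copies of each other and share 1 sum, so that these were 79 of 82 distinct sums.

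For a few genes the split decided the value. Rps27 had 13 and 75 reads in controls and 63, 156 and 39 after irradiation, while the retrogene Rps27rt, whose start is printed above beside that of Rps27, had 1091 and 1225 in controls and 3398, 4642 and 2858 after irradiation. Rps27 alone did not pass the test (1.17 ± 0.86, adjusted p = 0.341), and its groups overlapped. Summed with its copies, the pair rose by 1.82 (adjusted p = 0.00909). Rpl27 had 1460 and 1059 reads in controls and 1416, 1218 and 1600 after irradiation, whereas the identical pseudogene Rpl27-ps3 had 4722 and 3425 in controls and 8004, 8384 and 6981 after irradiation. Summed, they rose by 0.97 (adjusted p = 0.0138). Rpl5 held fewer reads than its identical copy Gm15500, which had 12649 and 11059 in controls and 25518, 18257 and 20674 after irradiation, and the sum rose by 1.00 (adjusted p = 0.0100). Where the copy is identical, the reads cannot tell which locus was transcribed. In all, 8 members had more reads in their copies than of their own in every library, namely Rpl5, Rpl10, Rpl12, Rpl27, Rpl27a, Rpl34, Rps3a1 and Rps12. Rpl10 had 1906 and 2363 reads in controls and 5627, 3536 and 4662 after irradiation. Its identical copy Rpl10-ps3, which the annotation lists as protein-coding and the rule left out for its symbol, had 6724 and 6727 in controls and 12453, 16236 and 12031 after irradiation. Summed with their copies, the 8 rose by 0.97 (Rpl27) to 1.34 (Rpl27a). The values of these 8 and of Rps27 and Rps27rt as single genes are therefore uncertain, and smaller shifts between a member and its copies can touch the other members that have copies.

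Most reads of the members came from protein-coding isoforms. Isoforms annotated as retained intron, processed transcript or nonsense-mediated decay, which stand beside 233 coding isoforms in the annotation, held 3.00% and 4.04% of member reads in controls and 3.24%, 3.43% and 3.31% in irradiated cells. The groups overlapped, and the difference of −0.192 percentage points was smaller than the control SD of 0.735. Retained-intron isoforms held 0.98% and 1.64% in controls and 0.71%, 1.22% and 0.81% after irradiation, which also overlapped. Control replicate 3 was the highest library for both measures.

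Reads came from shorter transcripts on average in every irradiated library than in the controls. These averages take in all transcripts, those of the members among them, and no correlation with length was computed over all tested genes. The average read came from a transcript of 5463 bases in control replicate 2 and 4729 in control replicate 3. In the irradiated libraries it came from a transcript of 3715, 3625 or 3998 bases (replicates 1 to 3). Ribosomal protein transcripts are short, with a median of 681 bases against 2697 for all tested genes. Across the 83 tested members, which share the same 5 libraries, the log2 fold change fell with length, with a Spearman correlation of −0.46 and a Pearson correlation with log2 length of −0.58, as a description across genes.

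Among 1665 protein-coding genes outside the list whose transcripts measured 475 to 1148 bases, the range from the 10th to the 90th percentile of the members, 32.3% were called higher and the median log2 fold change was 0.57. Of the 65 members in that range 64 were called higher, with a median of 1.26. Every irradiated library lay above both controls for all 65 of these members and for 52.9% of the other genes. In the 308 of these genes that also had the members' range of abundance, 48.1% were called higher and the median was 0.53. The range of abundance was chosen after the data were seen.

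The distance from other genes was widest for the shortest transcripts. Length here is that of the isoform with the highest mean TPM, so a gene with longer isoforms can stand in a short class. By this measure the 3 tested fibroblast markers had a median of 442 bases. How far such genes set the medians of the other genes was not tested. Under 500 bases, 17 members had a median log2 fold change of 1.54 and 465 other genes one of −0.02. From 500 to 750 bases the medians were 1.34 for 30 members and 0.24 for 674 other genes. From 750 to 1000 bases they were 1.20 for 23 members and 0.73 for 575 genes, and from 1000 to 1500 bases 1.25 for 9 members and 0.63 for 1284 genes. The 4 members from 1500 to 3000 bases had a median of 0.61, against 0.26 for 4455 genes. The medians of the other genes were thus highest from 750 to 1000 bases, and those of the members below 500 bases. Above the median of other genes of their class lay 17 of 17, 30 of 30, 22 of 23, 8 of 9 and 4 of 4 members.

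**Figure D4:**
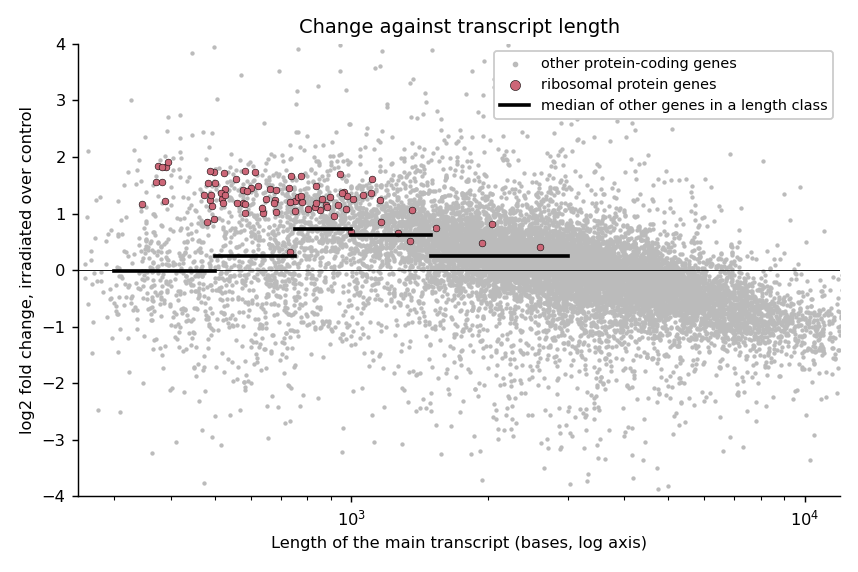
Log2 fold change against the length of the main transcript (log axis) for the 83 tested members (red) and 13383 other protein-coding genes (grey); another 170 lie outside the axes. Black bars give the median of the other genes in 5 length classes; the members lie above these bars for nearly every length, most clearly below 500 bases.

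With a smooth offset for length, fitted in each library over all genes, the members were called less widely. Then 62 of 83 members rose, against 4.62% of all tested genes and 9.61% of the other genes in the length range, and the median was 0.85, against 0.05 for all genes and 0.13 for the length range. Past the stricter rule were 4 members, Rps21 (1.75), Rps27rt (1.69), Rpl36 (1.67) and Rps29 (1.65), against 0.383% of all genes. Rpl27 was then at −0.12 (adjusted p = 0.709) and all other tested members stayed above 0. The offset removes any trend with length, whether it comes from the cells or from the libraries, and the part of either was not tested.

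Ribosomal protein genes with other symbols were read as well, and both described here rose. Fau, whose ubiquitin-like fusion yields eS30, rose by 1.58 ± 0.23 (adjusted p = 0.00869), from 112 and 117 CPM to 408, 366 and 250 CPM. Rack1, a signaling scaffold on the small subunit, rose by 0.90 ± 0.17 (adjusted p = 0.0120), from 679 and 555 CPM to 1260, 1125 and 1065 CPM, and with the length offset it was at 0.46 (adjusted p = 0.141).

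The 78 mitochondrial ribosomal protein genes, whose products translate the mitochondrial genome, had a lower median. Of these 40 rose (51.3%) and 0 fell, against 12.7% and 13% of all tested genes. At an unadjusted p under 0.05 there were 59 higher and 0 lower. DESeq2 called 53 higher and 0 lower, beside 2413 and 2292 of all 14106 tested genes. The 78 genes had a median log2 fold change of 0.72 and a median length of 954.5 bases. With the length offset, 8 rose (10.3%), close to the 9.61% of other genes in the members' length range and against 4.62% of all genes, and the median was 0.31. At an unadjusted p under 0.05 the offset gave 28 higher and 1 lower. The largest value was that of Mrpl52 (1.65 ± 0.31, adjusted p = 0.0115) and the smallest that of Mrpl23 (−0.91 ± 0.51, adjusted p = 0.213), which had 29 to 134 reads per library.

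Other mRNAs with a known TOP motif had a median further below that of the ribosomal protein mRNAs. Of 20 such genes 7 rose and 0 fell (11 and 0 at an unadjusted p under 0.05, 10 and 0 by DESeq2), with a median of 0.41 and a median length of 1765.5 bases. The 7 were 35% of the list, where edgeR called 12.7% of all tested genes higher and 13% lower. DESeq2 called 17.1% of all 14106 tested genes higher and 2292 of them lower. The largest was Eef1b2, a subunit of the elongation factor eEF1B (1.12 ± 0.15, adjusted p = 0.00849), and the smallest Pabpc1, the cytosolic poly(A)-binding protein (−0.49 ± 0.25, adjusted p = 0.174). With the length offset 2 rose (10%, against 4.62% of all tested genes) and the median was 0.11.

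Of 54 tested genes for proteins that build ribosomes 14 rose and 6 fell, with a median of 0.11, where 12.7% of all tested genes were called higher and 13% lower. The largest value was that of Nop10, a small protein of H/ACA snoRNPs with a main transcript of 1109 bases (1.34 ± 0.29, adjusted p = 0.0151). The smallest was that of Mdn1, the giant AAA ATPase of pre-60S maturation with one of 17970 bases (−1.57 ± 0.21, adjusted p = 0.00825), and with the length offset Mdn1 was at −0.18 (adjusted p = 0.407). With that offset 3 genes of the list rose by edgeR's adjusted p (5.56%, close to the 4.62% of all tested genes). By the same rule 0 of the list fell, beside 537 of all 14106 tested genes. At an unadjusted p under 0.05, 8 were higher and 11 lower.

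Of 16 genes of mTOR and Myc signaling 4 rose and 6 fell, with a median of −0.08, beside the same 12.7% and 13% of all tested genes. Rheb, the GTPase that activates mTORC1, had the largest value (1.07 ± 0.22, adjusted p = 0.0131), and Tsc2, which inactivates Rheb, the smallest (−1.24 ± 0.25, adjusted p = 0.0133). With the length offset 2 genes rose (12.5%, against 4.62% of all tested genes) and 0 fell. At an unadjusted p under 0.05 the offset gave 4 higher and 1 lower. Tsc2 was then at −0.74 (adjusted p = 0.0684). Among the 10 Rps6k kinases that the rule left out, 0 rose and 1 fell, beside 12.7% and 13% of all tested genes. DESeq2 called 0 of the kinases higher and 2 lower, beside 2413 and 2292 of all 14106 tested genes. At an unadjusted p under 0.05 edgeR gave 0 higher and 3 lower. Their log2 fold changes lay between 0.39 for Rps6ka1 (adjusted p = 0.155) and −0.97 for Rps6ka6 (adjusted p = 0.0555). The spliced host RNAs of snoRNAs were not analysed here.

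**Figure D5:**
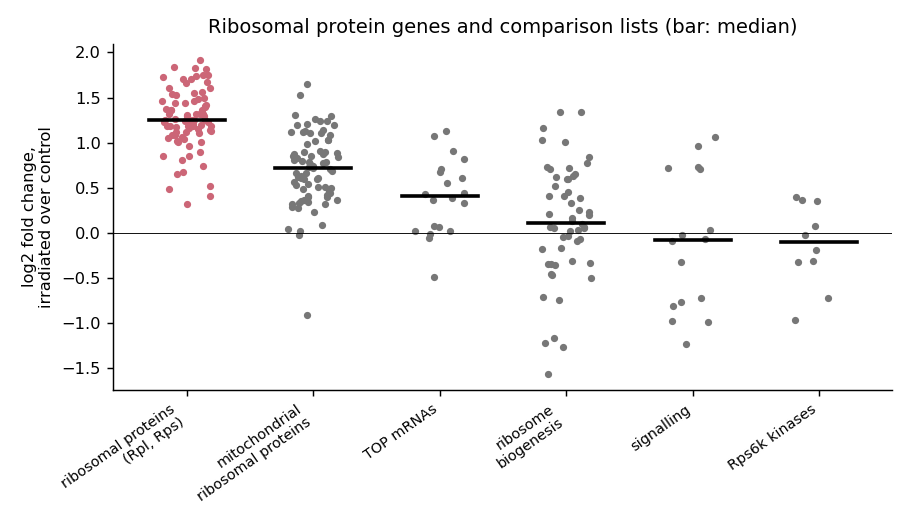
Log2 fold change of irradiated over control cells for the tested genes of 6 lists; each point is 1 gene and the bar is the median. The medians run from 1.25 for the Rpl and Rps genes through 0.72 for mitochondrial ribosomal proteins and 0.41 for other TOP mRNAs to −0.11 for the Rps6k kinases.

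Markers of the line and of other cells were read beside these results. All 10 neuroendocrine markers were detected and tested, and 4 rose while 1 fell, where 12.7% of all tested genes rose and 13% fell. With the length offset 0 of the 10 were called, where 4.62% of all tested genes were called higher. At an unadjusted p under 0.05, 3 of the 10 were then higher and 1 lower. The leukocyte markers Adgre1, Csf1r and Lyz2 had 0 to 2 reads per library, and the summed reads of the 5 leukocyte markers made up 9.57e-05% to 0.000235% of a library. Of the 5 fibroblast markers Col3a1 had 0 reads in every library and Pdgfra held nearly all reads, with 94.3 to 130 CPM, and the sum made up 0.00978% to 0.0126% of a library. The 3 endothelial markers made up 5.94e-05% to 0.000187%, and Cdh5 had 0 to 2 reads. Of these 13 genes 6 were tested. edgeR and DESeq2 called 0 of them, and 0 had an unadjusted p under 0.05 in edgeR. With the length offset 1 fibroblast and 1 endothelial marker were lower at an unadjusted p under 0.05.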

How the data were processed

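The authors ran Salmon on each library at default settings against mm10 (Salmon 0.8.2 and DESeq2 1.22.2 per the labels' processing notes). They deposited an estimated count of reads and a TPM value, scaled within each library, for every transcript, without normalization between libraries, together with transcript lengths and effective lengths. The annotation release is not given in the sources used here. Transcripts were matched to GENCODE M21 without version suffixes (112762 of 113116, 99.69%, with 99.87% to 99.88% of reads), and the estimated counts were summed to genes and rounded. A gene's length is that of its main transcript, the isoform with the highest mean TPM over the libraries, which need not be its longest. Libraries held 21185956 to 31036317 reads. The floor of 3 reads covers counting error only.

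Groups were taken from the treatment labels. edgeR 4.0.16 (R 4.3.3) was run with filterByExpr, TMM and the quasi-likelihood test, adjusting p-values by Benjamini-Hochberg over 14106 genes, without a block. The stricter rule asked for an adjusted p under 0.05 and a log2 value beyond 1.5. CPM used TMM-scaled totals. Near-identical copies were found with blastn 2.17.0. The alternatives were DESeq2 1.42.0, other normalizations and filters, offsets for length (spline with 5 degrees of freedom), GC content or Salmon's effective length, copies summed, coding isoforms alone, a replicate block and each library left out. The fits were tested on simulated data.

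Genes named were landmark ribosomal proteins, paralogues and their partners, the 5 largest and 5 smallest log2 fold changes, Fau and Rack1, and the extremes of each list. Rps19bp1, Gm15500, Rpl27-ps3, Rpl10-ps3, Rpl12, Rpl27a, Rpl34, Rps3a1, Rps12 and the markers Adgre1, Csf1r, Lyz2, Col3a1, Pdgfra and Cdh5 were named after their values were seen. The members and lists were chosen with earlier results of these data known. Protein sequences were not used here, and 2 of the genes read are not reported here.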

Additional observations from a re-analysis of the deposited data

How the results depend on the processing

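The count of 78 members called higher stayed between 57 and 80 in all alternatives but 2. These were the replicate block with the transcript length offset (23 members, against 0.957% of all tested genes) and the fit without control replicate 2. Leaving out 1 library at a time gave 34 to 77 members called higher, with 34 without control replicate 2, when 95 genes were called higher in all. The count of 18 past the stricter rule was 4 under the length offset, 5 when the block was added to it, and 5 with copies summed and the length offset, a setting chosen after seeing the data. It was 6 to 29 with 1 library left out, with 6 without control replicate 2, 7 without irradiated replicate 2, 28 without irradiated replicate 3 and 29 without control replicate 3. The median log2 fold change of 1.25 was 0.85 under the length offset, 0.77 when the block was added to it, 0.84 with copies summed and the length offset, and 1.18 to 1.38 with 1 library left out. The difference in reads of non-coding isoforms, −0.192 percentage points, was −0.732 as a share of TPM and −0.712 to 0.327 with 1 library left out, at −0.712 without control replicate 2 and 0.327 without control replicate 3. Single genes that changed sign were Rpl27 (−0.12 under the length offset and −0.11 when the block was added to it), Rps27 (−0.053 with coding isoforms alone) and Mrpl23 (0.34 with coding isoforms alone). The cause was not tested. Of the values of named members under the alternatives, 528 kept direction and side of the threshold, 59 lost the call, 10 gained it and 3 changed sign.

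The replicate block pairs only numbers 2 and 3, so irradiated replicate 1 has no weight in it. With the block 57 members were called higher, against 4.27% of all genes, 16 passed the stricter rule, and the median was 1.22. The difference between replicates 2 and 3 in log2 CPM had a correlation of −0.196 between the groups, across tested genes. With 2 shared numbers this cannot show whether the samples were paired, and no label says that they were. Leaving out a control leaves 1 control, which is assumed to vary like the irradiated libraries. Rps27 had 13 to 156 reads per library, and Rpl3l, Rpl10l and Rpl39l had too few for a test.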
